A study of Mus musculus with 8 samples.

Results

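The 8 transcription factor genes described here give the gut epithelium its identity: the homeobox genes Cdx1 and Cdx2, the zinc finger genes Gata4, Gata5 and Gata6, and the forkhead genes Foxa1, Foxa2 and Foxa3. They were chosen by name, with earlier results of these data known. All 8 were found by Ensembl identifier among the 23318 genes of the deposited files. RNA came from mouse small intestinal epithelium sorted by flow cytometry on the surface glycoprotein CD24, after removal of cells that carried the leukocyte antigen CD45 or bound the lectin of Ulex europaeus, which is known to label fucose-bearing secretory cells such as goblet and Paneth cells. There were 4 libraries of CD24Mid cells (library numbers 1, 3, 5 and 7) and 4 of CD24Neg cells (2, 4, 6 and 8), which the series design calls biological replicates; the submitters also call CD24Mid CD24low. The labels give no strain, age, sex or treatment, and no genotype beyond mouse. They do not say whether a replicate is 1 animal or a pool, so the p-values measure only the spread between these libraries.

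CDX2 is the master regulator that sets intestinal against gastric fate, and CDX1 is its close relative in the crypt. GATA4 is known for keeping proximal small intestine distinct from ileum, GATA6 overlaps with it along the whole intestine, and GATA5 is the least studied of the 3 in this tissue. FOXA1 and FOXA2 are pioneer factors that open closed chromatin and are needed for several enteroendocrine and goblet cell products, and FOXA3 is their relative in endoderm.

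The deposited values are expression estimates per gene, already scaled between libraries as judged from the values themselves. One read, judged from the even steps between low values, was worth between 0.583 and 0.697 in CD24Mid and between 1.072 and 1.774 in CD24Neg, so a low value is less precise in CD24Neg. If 1 step is 1 read, CD24Mid libraries held from 17500000 to 19600000 reads and CD24Neg libraries from 12500000 to 20700000 reads. Mitochondrially encoded genes took 8.03% to 9.1% of the summed values in CD24Mid and 28.3% to 37.4% in CD24Neg. Cd24a, the gene of the sorting antigen, followed the labels at 2792 ± 615.8 in CD24Mid and 409.9 ± 120.3 in CD24Neg (SD, n = 4 each). In CD24Neg all 10 stem cell markers were called lower and all 10 enterocyte markers higher. Of all tested genes 34.3% were called lower and 34% higher. In such bulk libraries, fewer cells of a type and less RNA per cell cannot be told apart.

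Promoter sequences are shown for 3 genes with different outcomes: Foxa1, which was lower in CD24Neg, Gata5, which was higher, and Cdx2, which was not called. They come from RefSeq on build GRCm38.p6 and run 5′ to 3′ along the gene, which lies on the minus strand in each case. Each ends before the first annotated exon of its start site, so no untranslated sequence is included. Capitals mark matches, on either strand, to any of 3 motifs. The forkhead motif searched was TGTTTAC. For GATA factors it was AGATAA. For CDX factors it was TTTATNG, where N is any base.
Foxa1, chr12:57546122-57546361: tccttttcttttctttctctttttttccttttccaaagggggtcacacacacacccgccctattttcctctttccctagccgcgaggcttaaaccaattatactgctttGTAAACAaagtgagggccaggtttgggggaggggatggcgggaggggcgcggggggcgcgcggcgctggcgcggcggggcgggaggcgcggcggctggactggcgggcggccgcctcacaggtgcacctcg
Gata5, chr2:180334700-180334929: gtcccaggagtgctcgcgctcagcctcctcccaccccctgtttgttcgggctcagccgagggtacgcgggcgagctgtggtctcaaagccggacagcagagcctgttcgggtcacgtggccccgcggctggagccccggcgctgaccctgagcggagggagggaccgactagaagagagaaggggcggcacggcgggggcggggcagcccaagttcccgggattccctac
Cdx2, chr5:147307271-147307499: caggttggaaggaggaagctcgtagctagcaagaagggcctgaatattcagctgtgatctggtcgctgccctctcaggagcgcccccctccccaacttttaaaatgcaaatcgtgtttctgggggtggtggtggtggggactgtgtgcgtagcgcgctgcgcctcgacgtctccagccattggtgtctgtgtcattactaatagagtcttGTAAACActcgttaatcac

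The Foxa1 stretch holds 1 forkhead match, 141 bases before the RefSeq start. That stretch lies inside the span that the GENCODE M21 annotation gives Foxa1, so it precedes an internal start. The Gata5 and Cdx2 stretches adjoin the 5′ ends of their genes. The Cdx2 stretch also holds 1 forkhead match, 40 bases before its start. No match to the 3 motifs lay in the Gata5 stretch. RefSeq windows of 300 bases existed for 5 of the 8 genes, with 7 windows in all because Foxa2 has 3 starts. Foxa2 and Foxa3 each had 1 match. That of Foxa2 lies in the innermost of its 3 windows, inside the gene, and its outermost window holds none. Both matches are shown with the bases around them.
Foxa2, GATA match, chr2:148045630-148045658: tgttagccttgAGATAAtattaactttgt
Foxa3, CDX match, chr7:19023558-19023587: gggtgtcccggCTATAAAaagtggctgcct

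The Foxa3 match overlaps a TATA-box sequence (TATAAA). Among all 32851 promoter windows, 3.65% hold the forkhead motif, 11.2% the GATA motif and 10.9% the CDX motif. A match describes the letters only, and binding was not measured. On the same build, GENCODE M21 places Foxa1 at chr12:57540628-57546916, Foxa2 at chr2:148042877-148046969, Foxa3 at chr7:19013284-19023538, Gata4 at chr14:63198922-63271692, Gata5 at chr2:180325133-180334699 and Cdx2 at chr5:147300805-147307270, all on the minus strand.

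Expression of the 8 factors was compared between the fractions in 1 fit over all tested genes. In CD24Neg, Gata5 was 2.6-fold higher, Foxa1 2.83-fold lower, Foxa2 3.67-fold lower and Cdx1 1.54-fold lower, and Gata6 was 1.19-fold higher at the edge of the threshold, with the opposite sign under 2 other scalings. Cdx2, Gata4 and Foxa3 did not pass. All 8 genes had a value of at least 10 in all 8 libraries, so none entered the test through 1 fraction alone. Thus 5 of 8 were called at an adjusted p of 0.05 (limma, Benjamini-Hochberg over 12906 genes), where 68.3% of all tested genes were called. Higher calls made up 34% of tested genes and lower calls 34.3%. The 4 libraries of 1 fraction did not overlap the 4 of the other for those same 5 factors, against 63.8% of tested genes. In a test against a fold change of 1.5, only Gata5, Foxa1 and Foxa2 passed, 3 of 8, against 37.1% of tested genes.

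**Figure D1:**
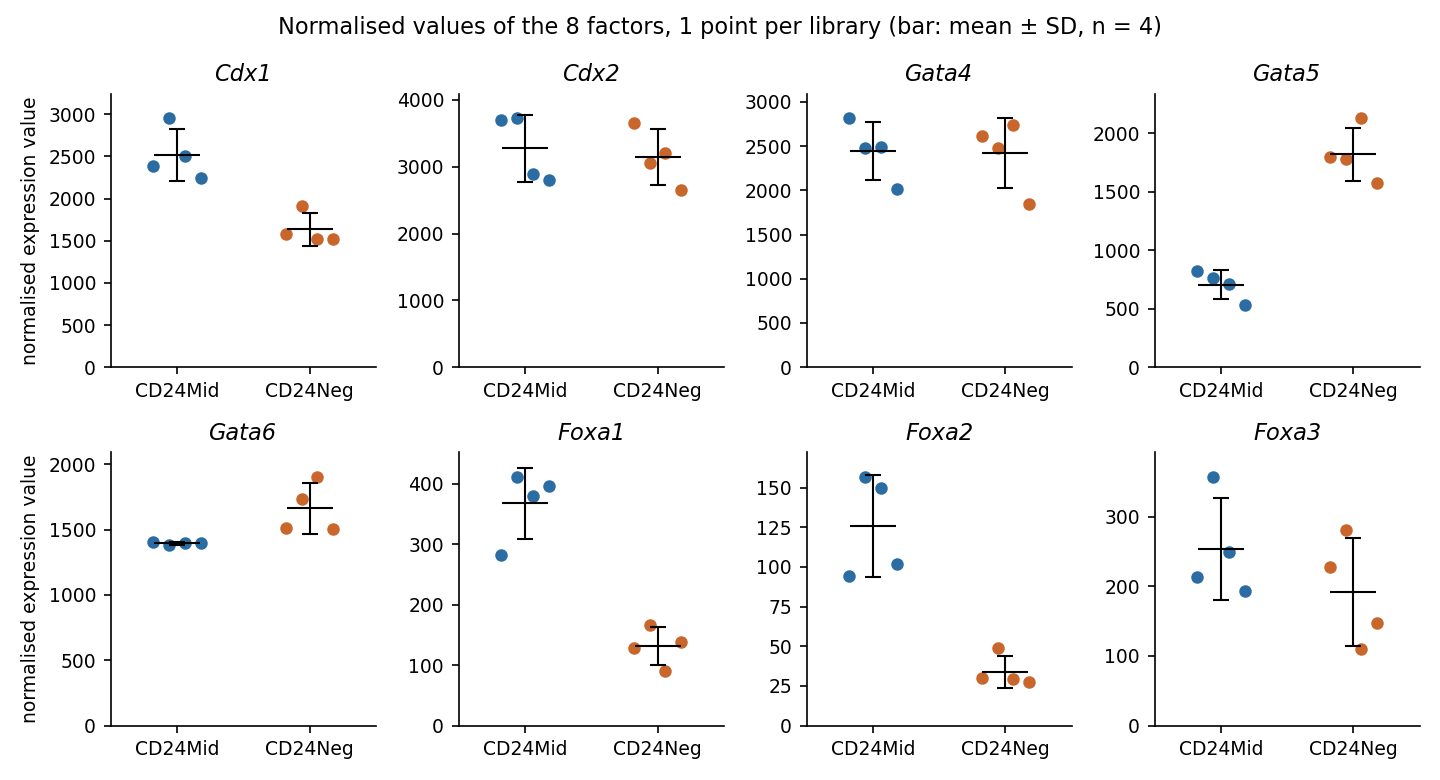
Normalised expression value (vertical axis, from 0) of each factor in each library of CD24Mid (blue) and CD24Neg (orange), with black bars for mean ± SD (n = 4). The Gata5 values of 528.7 to 824.3 and 1574 to 2127 lie apart, as do those of Cdx1, Gata6 (whose sign turns under 2 other scalings), Foxa1 and Foxa2, while Cdx2, Gata4 and Foxa3 overlap.

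Cdx2 was not called different between the fractions. Its values were 3699, 3723, 2886 and 2797 in CD24Mid libraries 1, 3, 5 and 7 and 3656, 3056, 3209 and 2646 in CD24Neg libraries 2, 4, 6 and 8. The ranges overlapped almost wholly, and the spread within a fraction was larger than the difference between them. The log2 fold change (CD24Neg minus CD24Mid) was -0.06 with SE 0.14 (limma adjusted p = 0.73). Its 95% interval ran from 0.775-fold to 1.19-fold, so a change of 1.5-fold in either direction lay outside it under this scaling. It was called lower under 2 other scalings, given with those of the other factors. Only 4.26% of tested genes had a smaller absolute change.

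Cdx1, in contrast, was lower in CD24Neg. Its values were 2382, 2952, 2500 and 2245 in CD24Mid and 1579, 1917, 1523 and 1516 in CD24Neg. Every CD24Neg library lay below every CD24Mid library, with CD24Neg library 4 the highest of its group. The log2 fold change was -0.62 (SE 0.12, limma adjusted p = 0.000919). Against a fold change of 1.5 it did not pass (limma adjusted p = 0.674), so the size of the decrease is not shown to exceed 1.5-fold.

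The 2 Cdx genes therefore differed in their balance. The log2 ratio of Cdx1 to Cdx2 within a library, which no single scaling factor per library can change, was -0.37 ± 0.18 in CD24Mid and -0.94 ± 0.25 in CD24Neg (SD, n = 4 each). The difference of -0.57 had an exact two-sided permutation p of 0.0286, the smallest that 4 against 4 libraries allow, and 0.04 after adjustment over the 7 within-family ratios. The lowest CD24Mid ratio was -0.63 in library 1 and the highest CD24Neg ratio -0.67 in library 4, so these libraries nearly met. The adjusted p rose to between 0.0571 and 0.08 without CD24Mid library 3, 5 or 7 or CD24Neg library 2 or 6. Quantile normalisation does change ratios, and there the difference was -0.48 (exact permutation, adjusted p = 0.0667), which did not pass.

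Gata5 was the factor that rose most in CD24Neg. Its values were 824.3, 760.9, 710 and 528.7 in CD24Mid and 1800, 1777, 2127 and 1574 in CD24Neg. The lowest CD24Neg library stood well above the highest CD24Mid library. The log2 fold change was 1.38 (SE 0.15, limma adjusted p = 2.04e-05), and it passed in all 18 alternative analyses, with 1.24 to 1.45 when single libraries were left out. An antisense gene, Gata5os, covers 874 bases of Gata5 exons, and strand use in the counting is not given in the sources used here. Gata5os itself reached at most 15.09 in CD24Mid and 40.17 in CD24Neg.

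Gata4 was not called under this scaling, though it was called lower under 2 others. Its values were 2814, 2482, 2486 and 2011 in CD24Mid and 2612, 2483, 2739 and 1845 in CD24Neg. The lowest and the highest libraries of the 2 fractions were close to each other. Its log2 fold change was -0.02 (SE 0.15, limma adjusted p = 0.898), with an interval from 0.782-fold to 1.24-fold.

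Gata6 showed a small increase that rests on the choice of scaling. Its values were 1404, 1379, 1396 and 1397 in CD24Mid and 1511, 1734, 1903 and 1501 in CD24Neg. The CD24Mid libraries varied by only 0.74% (coefficient of variation), the CD24Neg libraries by 11.6%, and the groups did not overlap. Its log2 fold change of 0.25 (SE 0.10) just passed (limma adjusted p = 0.0467). The call ended without any 1 of the CD24Mid libraries 1, 3, 5 or 7 or CD24Neg libraries 4 or 6 (adjusted p from 0.0744 to 0.113). The sign turned under quantile normalisation (-0.13) and under scaling to library totals that left out the 20 most abundant genes (-0.18), neither of which was called.

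Within a library, Gata5 gained on both of its relatives. The log2 ratio of Gata4 to Gata5 was 1.80 ± 0.09 in CD24Mid and 0.40 ± 0.14 in CD24Neg, and that of Gata5 to Gata6 was -1.0 ± 0.28 and 0.13 ± 0.10 (n = 4 each). Gata5 thus went from below Gata6 in every CD24Mid library to above it in every CD24Neg library in normalised value. Per kilobase of exon, however, Gata5 was already above Gata6 in 3 of 4 CD24Mid libraries. Both differences had an exact permutation p of 0.0286 and an adjusted p of 0.04, which was 0.05 after quantile normalisation (1.22 for Gata5 to Gata6 and -1.59 for Gata4 to Gata5), at and not under the threshold. Without CD24Mid library 3 or 5 or CD24Neg library 2 or 6 it was also 0.05, and without CD24Mid library 7 it was 0.0571. The ratio of Gata4 to Gata6 (0.80 ± 0.20 and 0.53 ± 0.20) did not pass, with an exact permutation p of 0.0571 and an adjusted p of 0.0667.

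**Figure D2:**
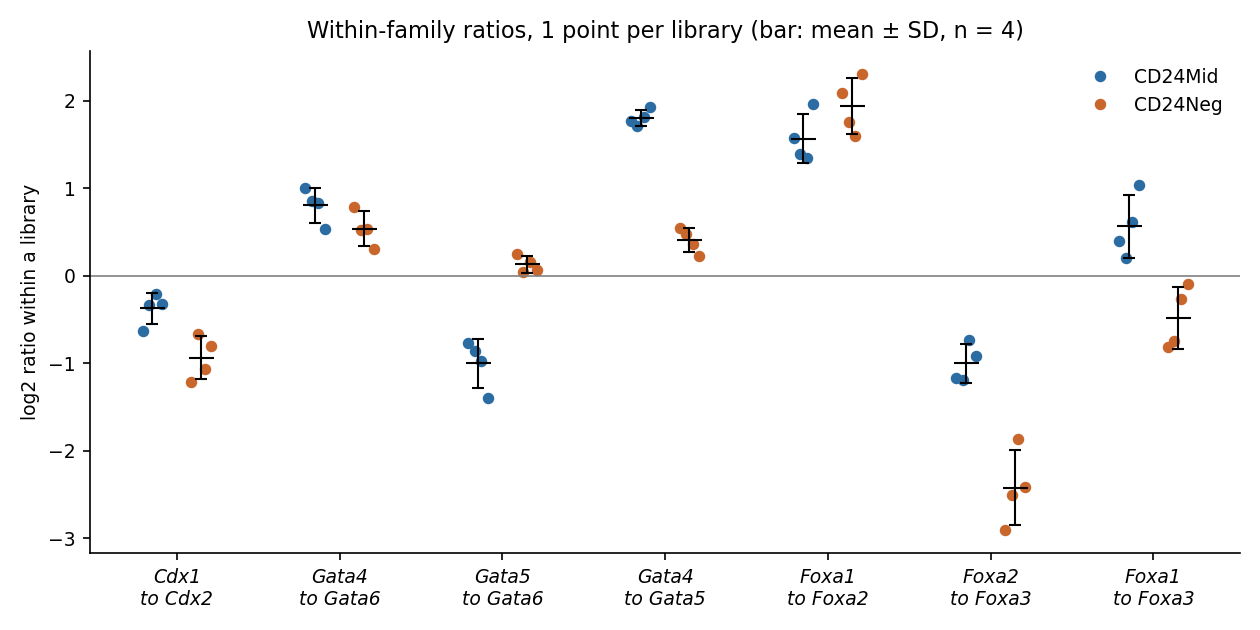
Log2 ratio of 2 family members within each library (vertical axis) for the 7 pairs tested, in CD24Mid (blue) and CD24Neg (orange), with black bars for mean ± SD (n = 4). The fractions separate for 5 pairs, most widely for Gata4 to Gata5, and overlap for Gata4 to Gata6 and Foxa1 to Foxa2.

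Foxa1 was lower in CD24Neg. Its values were 281.7, 411.5, 379.7 and 397.2 in CD24Mid and 129.2, 167.2, 90.81 and 138.2 in CD24Neg. No CD24Neg library reached the lowest CD24Mid library. This was a log2 fold change of -1.50 (SE 0.20, limma adjusted p = 8.22e-05).

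Foxa2 had the lowest level per length and the largest fold change of the 8. Its values were 94.26, 156.7, 149.5 and 102 in CD24Mid and 29.89, 48.97, 29.64 and 27.39 in CD24Neg. The CD24Neg values correspond to about 16.8 to 29.1 reads per library, so they carry a sizeable counting error, yet the groups lay apart. Its log2 fold change was -1.88 (SE 0.26, limma adjusted p = 0.000106). Both Foxa1 and Foxa2 passed in all 18 alternative analyses.

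Foxa3 varied by 28.9% within CD24Mid and 40.4% within CD24Neg (coefficient of variation). Its values were 212.8, 357, 249 and 192.8 in CD24Mid and 227.7, 280.7, 109.3 and 147.9 in CD24Neg. CD24Neg libraries 2 and 4 lay within the CD24Mid range, and libraries 6 and 8 below it. A log2 fold change of -0.45 (SE 0.30, limma adjusted p = 0.201) was fitted, and its interval ran from 0.46-fold to 1.16-fold. It was -0.21 without CD24Neg library 6, -0.28 without CD24Mid library 3 and -0.67 without CD24Neg library 4, with no call in any of these (limma adjusted p from 0.0619 to 0.502). It passed under scaling to totals (-0.88, limma adjusted p = 0.0263).

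The Foxa genes did not shift in step. The log2 ratio of Foxa2 to Foxa3 was -1.0 ± 0.22 in CD24Mid and -2.42 ± 0.43 in CD24Neg, and that of Foxa1 to Foxa3 was 0.56 ± 0.36 and -0.48 ± 0.35 (exact permutation p = 0.0286, adjusted p = 0.04 for both, n = 4 each). After quantile normalisation the differences were -1.35 and -1.07, each with an adjusted p of 0.05 (exact permutation), not under the threshold. Leaving out those same 5 libraries in turn gave the same adjusted p-values as for the Gata5 ratios, 0.05 and 0.0571. The ratio of Foxa1 to Foxa2 was 1.57 ± 0.28 and 1.94 ± 0.32, a difference of 0.38 that did not pass (exact permutation p = 0.114, adjusted p = 0.114).

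Levels of different genes were compared per kilobase of annotated exon, using GENCODE M21 lengths of 1.75 kb (Cdx1) to 6.508 kb (Gata6). In CD24Mid the order of the per-kilobase levels was Cdx2 (1449 ± 222.7), Cdx1 (1440 ± 175.1), Gata4 (627.1 ± 84.64), Gata5 (215.4 ± 38.78), Gata6 (214.2 ± 1.631), Foxa3 (124.2 ± 35.93), Foxa1 (110.5 ± 17.64) and Foxa2 (53 ± 13.51). Neighbours overlapped for Cdx2 and Cdx1, with Cdx2 above Cdx1 in 1 of 4 libraries, Gata5 and Gata6, and Foxa3 and Foxa1. The order of the means was the same in CD24Neg, but there only Gata4 (619.8 ± 101.7) and Gata5 (555.2 ± 69.81) overlapped, with Gata4 above Gata5 in 3 of 4 libraries. The values per kilobase assume that all annotated exons are used, which was not tested.

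As shares of each family's per-kilobase sum, Cdx1 made up 49.9% ± 3.17 in CD24Mid and 40.3% ± 4.09 in CD24Neg. Gata5 went from 20.3% ± 1.53 to 38.9% ± 1.43 of the Gata sum, while Gata4 went from 59.2% ± 1.21 to 43.2% ± 2.59. Foxa3 was 42.8% ± 5 of the Foxa sum in CD24Mid and 62.4% ± 5.67 in CD24Neg. These shares restate the ratios above on a linear scale and carry no test of their own.

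**Figure D3:**
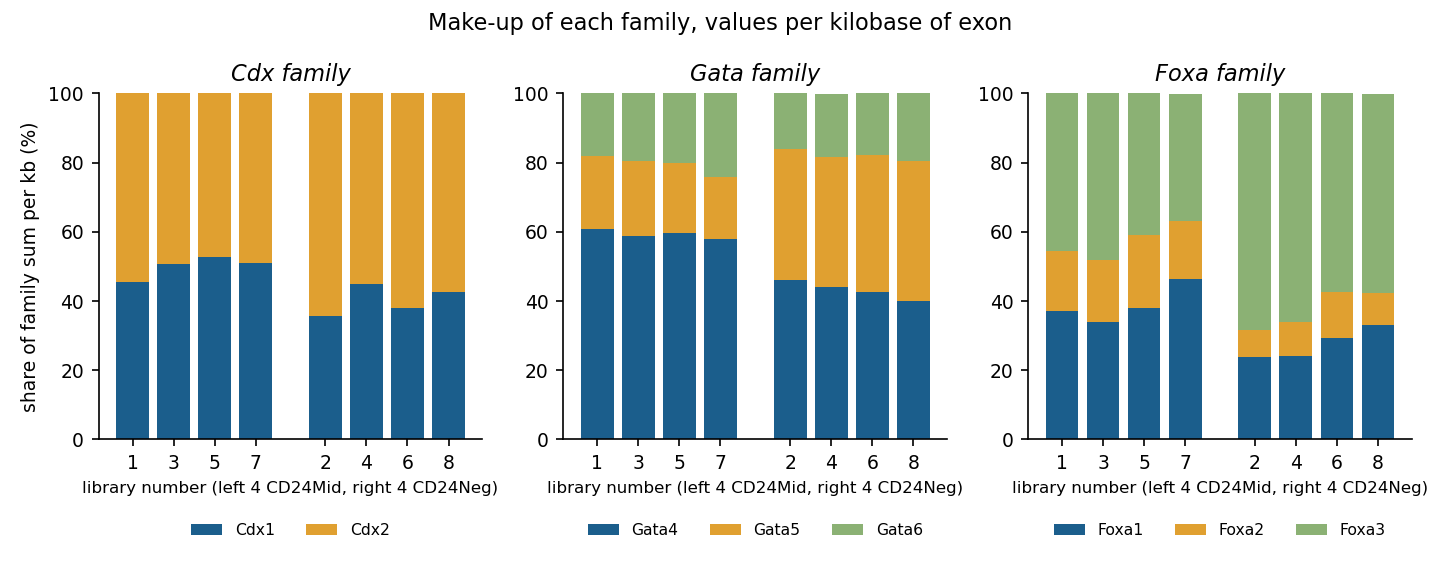
Share of each member (stacked bars, percent) in the sum of its family's values per kilobase of exon, in each library, with 4 CD24Mid libraries at the left and 4 CD24Neg libraries at the right of each panel. The Gata5 share is 18.1% to 21.5% in CD24Mid and 37.5% to 40.6% in CD24Neg.

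Scaling between libraries sets the zero of every fold change here. Scaling to library totals moved the median of all tested genes from -0.02 to -0.44, and Cdx2 (-0.48) and Gata4 (-0.45) then stood close to that median and were called lower. Under quantile normalisation the median was -0.06, but Cdx2 (-0.57) and Gata4 (-0.49) were again called lower. The missing calls for these 2 genes thus hold for median-ratio centring and for the values as deposited, which gave nearly the same fold changes (-0.06 and -0.02), and not for the other 2 scalings. Gata5 was called higher, and Cdx1, Foxa1 and Foxa2 lower, under all 4. Median-ratio centring and the values as deposited are in effect 1 scaling, since the median ratios were 1.0102 to 1.0104 in all libraries.

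**Figure D4:**
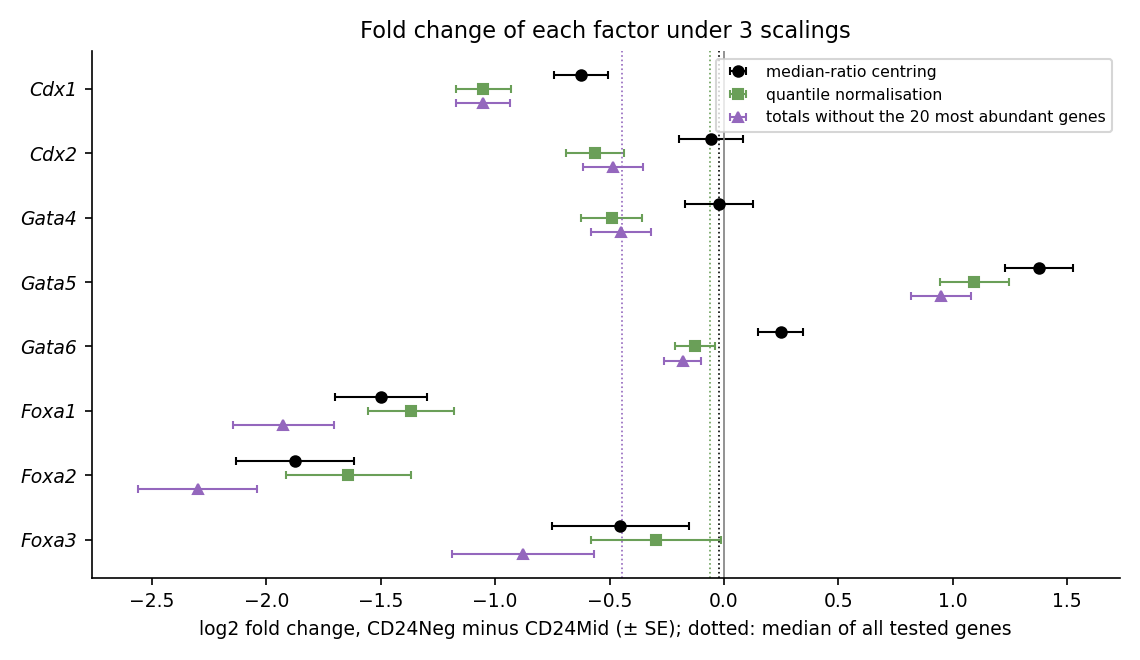
Log2 fold change (horizontal axis, CD24Neg minus CD24Mid, with SE) of each factor under median-ratio centring (black circles), quantile normalisation (green squares) and scaling to totals (purple triangles), with the median of all tested genes as a dotted line of the same colour. Gata5 stays above 0 and Cdx1, Foxa1 and Foxa2 below 0 in all 3, while Gata6 changes sign.

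Foxa1 and Foxa2 are tied to the secretory lineages, so the markers of those lineages are given beside them. Of 23 tested enteroendocrine markers 18 were lower in CD24Neg, 0 higher and 5 not called, with a median log2 fold change of -1.95. The median of all tested genes was -0.02, with 34% called higher and 34.3% lower. The counts of this and all later lists are to be read beside these shares. Summed, the enteroendocrine markers lay between 5040 and 13724 in CD24Mid and between 1537 and 2684 in CD24Neg. Library by library, the summed value was highest in CD24Mid library 3 (13724) and library 5 (11296), where Foxa2 was also highest. Gip alone gave 5811 of the sum in library 3, against 415.3, 1327 and 837.1 in libraries 1, 5 and 7. CD24Neg library 4 led its group in both (2684 and 48.97). CD24Neg library 8, however, had the next highest sum (1934) and the lowest Foxa2 (27.39). The part of these cells in the Foxa2 difference was not tested.

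The goblet list of 10 genes had 5 calls higher and 1 lower, and 4 genes missed the threshold. Summed, it lay between 52422 and 79620 in CD24Mid and between 183111 and 506792 in CD24Neg. In CD24Neg the libraries ran in the same order for goblet markers (506792, 386003, 216442 and 183111 in libraries 4, 2, 8 and 6) as for Foxa3 (280.7, 227.7, 147.9 and 109.3). In CD24Mid they did not, since library 3 was highest for Foxa3 and library 1 for the goblet sum. That sum was led by its most abundant gene, Fcgbp (37900 in library 1 and 29770 in library 3). Muc2 and Clca1 were also highest in library 1. The remaining goblet markers were highest in library 3, as Foxa3 was, although Zg16 barely differed (11890 against 11870 in library 1). The lectin depletion bears on this cell type. The part of goblet cells in the Foxa3 spread was not tested. Among 9 tested Paneth markers there were 2 calls higher and 2 lower, and 0 higher and 2 lower under scaling to totals.

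**Figure D5:**
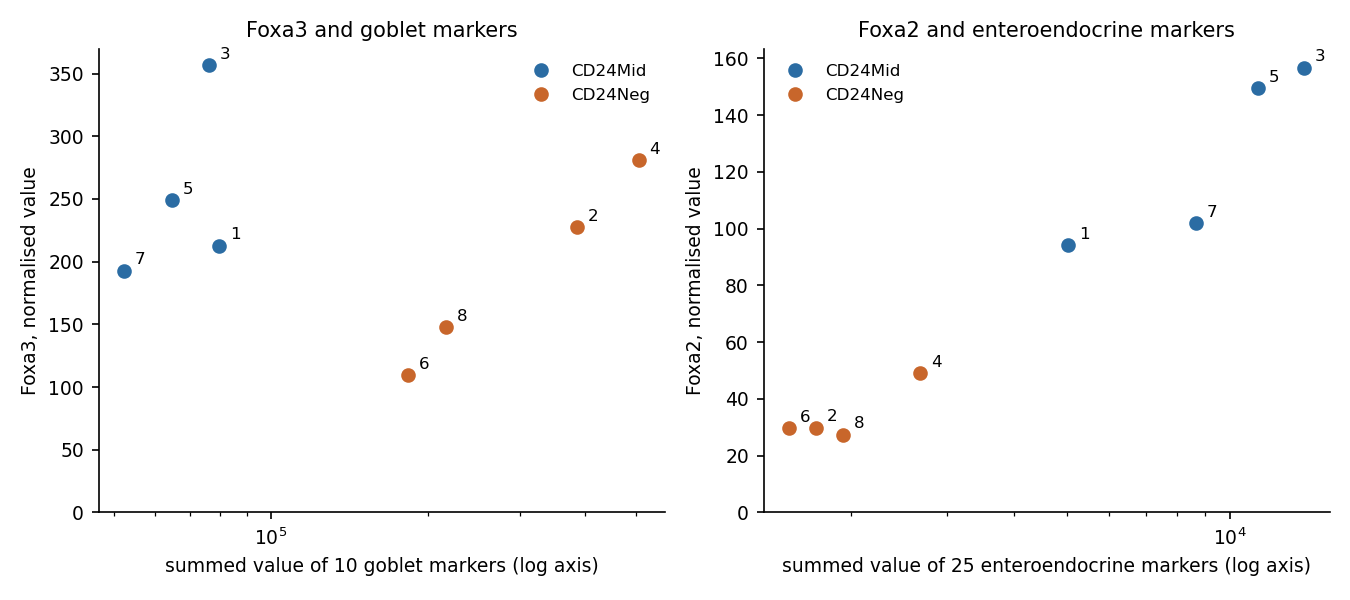
Normalised value of Foxa3 against the summed value of 10 goblet markers (left) and of Foxa2 against the summed value of 25 enteroendocrine markers (right, both horizontal axes log), 1 numbered point per library, CD24Mid blue and CD24Neg orange. Foxa2 is at 94.26 or more in the CD24Mid libraries, all of which have sums of 5040 or more, and at 48.97 or less in the CD24Neg libraries.

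Genes known from other work to depend on FOXA1 and FOXA2 did not all go one way. Of 7 such genes 6 were tested, with 4 lower, 1 higher and 1 not called. Gcg, which encodes proglucagon, was 3.28-fold lower (348.7 ± 108.9 against 111.2 ± 49.71), Pyy, the peptide YY gene, 3.8-fold lower (108.7 ± 72.59 against 29.22 ± 18.26), and Chga, a granin, 5.86-fold lower. Pax6, an endocrine transcription factor, was 5.98-fold lower. Muc2, the gel-forming mucin of goblet cells, was 4.72-fold higher (7134 ± 1402 against 36850 ± 18970). Sst, the somatostatin gene, reached 19.52 in CD24Mid and 16.73 in CD24Neg (limma adjusted p = 0.747).

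All 12 genes linked to CDX2 were higher in CD24Neg, against 34% of all tested genes. Cdx2 was not called there under median-ratio centring, and Cdx1 was lower. The median log2 fold change of the 12 genes was 2.84. Under quantile normalisation 10 of the 12 were called higher, without Cdh17 and Isx, and under scaling to totals 11, without Isx. Lct, which encodes lactase, was 102.6-fold higher, Fabp2, a fatty acid binding protein gene, 22-fold, and Alpi, the intestinal alkaline phosphatase gene, 15.8-fold. The smallest changes were those of Isx, an intestine-specific homeobox gene (1565 ± 107.4 against 1881 ± 119.1, 1.2-fold), Gpa33, an epithelial surface antigen (1.94-fold), and Cdh17, the liver-intestine cadherin (1.96-fold). Of the 12, 5 are also in the enterocyte marker list, whose 10 members were all higher, and Muc2 is a goblet cell product.

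GATA4 is known to promote jejunal and restrain ileal enterocyte genes, and both groups were higher in CD24Neg. All 7 jejunal genes rose, among them Apoa4, an apolipoprotein gene, by 97.2-fold and Cd36, a fatty acid receptor gene, from 38.34 ± 11.08 to 1304 ± 885.6. All 5 ileal genes rose as well, and neither count changed with the scaling. Fabp6, the ileal bile acid binding protein gene, went from 423.7 ± 285.8 to 12630 ± 7030, and Fgf15, which encodes an enterokine that signals to the liver, from 10.25 ± 3.904 to 371.8 ± 131.9. Slc10a2, the bile acid uptake transporter gene, reached 2.517 at most in CD24Mid, which is only a few reads, and lay between 52.09 and 192.7 in CD24Neg. Lct, Apoa4 and Fabp1 of the jejunal list are also in the enterocyte marker list, whose members were all higher. Gata4 itself differed by a log2 fold change of -0.02 between the same libraries under median-ratio centring. It was called lower under quantile normalisation (-0.49) and scaling to totals (-0.45).

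Of 10 relatives and partners of the factors, 7 had values and 4 were tested, with 0 called higher and 2 lower and a median of -0.09. Zfpm1, which encodes the GATA cofactor FOG1, was at 1563 ± 139.5 in CD24Mid and 1838 ± 143.6 in CD24Neg (limma adjusted p = 0.0627). Gata3, the T cell factor, was at 0 in all CD24Mid libraries and at 18.28, 0, 0.7007 and 4.712 in CD24Neg libraries 2, 4, 6 and 8. Gata2, a factor of blood cell precursors, was at 8.738 or less throughout. Gatad1 (1.33-fold) and Gatad2b (1.57-fold), zinc finger genes of chromatin complexes, were lower, and Gatad2a was not called. The Gatad2b call was lost under quantile normalisation. Libraries 2 and 8, with the highest Gata3, also had the highest summed T cell markers, 7467 and 5784 against 437.9 and 1282 in libraries 4 and 6. The part of T cells in the results was not tested. Without these 2 libraries Gata5, Gata6, Cdx1, Foxa1 and Foxa2 were still called in the same direction, Gata6 with a larger change (0.41, limma adjusted p = 0.00872).

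Among 38 other forkhead genes, 25 had values and 14 were tested. Where 34% of all tested genes were higher and 34.3% lower, 5 of the 14 were higher, 6 lower and 3 not called. These counts were 4, 6 and 4 under quantile normalisation and 3, 9 and 2 under scaling to totals. Foxm1, the forkhead factor of the G2 and M phases of the cell cycle, was 11.2-fold lower (1136 ± 71.06 against 108.2 ± 45.59). Foxk2 (1.82-fold) and Foxk1 (1.67-fold), known as repressors of autophagy genes, were lower too. Foxo6 (38.05 ± 9.362 against 109.9 ± 11.44), Foxq1 (106.7 ± 25.17 against 267.9 ± 79.21) and Foxj2 (161.6 ± 13.05 against 277.5 ± 32.98) were higher. The log2 fold changes of Foxa1 (-1.50) and Foxa2 (-1.88) lay between that of Foxm1 (-3.49) and those of the other 5 forkhead genes called lower, the largest of which was -0.86 for Foxk2.

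Homeobox and other factors of position along the gut form the last group of transcription factors. Of 48 such genes 39 had values and 13 were tested, with 2 called higher. Osr2 was 1.55-fold and Isx 1.2-fold higher. The Isx change turned negative without a call under quantile normalisation (-0.13) and scaling to totals (-0.16), and Osr2 lost its call under scaling to totals. Pdx1, the duodenal homeobox gene, averaged 152.3 ± 32.21 in CD24Mid and 203 ± 65.25 in CD24Neg, and Onecut2 1580 ± 371 and 1483 ± 274.6. Onecut2 was called lower under quantile normalisation (-0.46) and scaling to totals (-0.51). Sox2, the foregut factor that CDX2 opposes, was at 0 in 7 of 8 libraries and at 0.4962 in CD24Mid library 7.

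Markers of non-epithelial cells are given for comparison. The 11 measured mesenchymal markers summed to between 175.9 and 237 in CD24Mid and between 101.5 and 216.8 in CD24Neg, with 8 of them under 10 in every library. The 7 endothelial markers summed to between 68.92 and 89.71 and between 37.16 and 79.1. Each sum was below the value of every Cdx and Gata gene in the same fraction, and the mesenchymal sum was above Foxa2 in every library. Plasma and B cell markers, of which 5 of 5 tested were lower, summed to at least 5599 in CD24Mid and at most 758.3 in CD24Neg. Myeloid and mast cell markers, of which 5 of 7 tested were lower, summed to at least 894.4 and at most 580.2. Of 9 tested T cell markers 6 were higher. The part of these cells in the results was not tested.

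The genes whose pattern over the 8 libraries was most like that of a factor were found by Pearson correlation of log2 values, as a description, since the libraries share the difference between fractions. Gata5 was most like Gm12481 (r = 0.997) and Nab2 (0.997), Foxa2 most like Zfp2 (0.995) and Scml2 (0.991), and Foxa1 most like Clic4 (0.991) and Pole2 (0.991). Cdx1 was most like Cdkal1 (0.986) and Cep164 (0.985), and Gata6 most like Slc25a13 (0.982) and Isoc1 (0.977). For the factors that were not called, the nearest were Cox7a2l (0.983) and Aig1 (0.961) for Cdx2, Hibadh (0.965) and Gm21974 (0.959) for Gata4, and Agr2 (0.967) and Rcan3 (0.960) for Foxa3. Agr2, a protein disulfide isomerase gene of goblet cells, is 1 of the 10 goblet markers above.

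With the difference between fractions removed, deviations from the group means over the 8 libraries were most alike for Cdx1 and Foxa2 (r = 0.893), Gata4 and Gata5 (0.874), Cdx1 and Foxa3 (0.850) and Cdx2 and Gata4 (0.775). Cdx1 and Foxa2 were both highest in CD24Mid library 3 and in CD24Neg library 4, where both values are flagged below. The part of these libraries in that correlation was not tested. Foxa1 deviated the opposite way to Gata5 (-0.596) and Gata4 (-0.508). Among all tested genes, the deviations of Foxa3 were most like those of Mycl (0.990) and Tubb2b (0.989), and those of Foxa2 most like those of Mptx1 (0.983) and Zfp2 (0.965). These are descriptions of 8 libraries with no test.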

How the data were processed

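Each of the 8 deposited tables holds 1 signal value per Ensembl gene. The headers name the library but no unit, and near-equal median ratios between libraries show that the values were already scaled. Bowtie 0.12.8 and NCBIM37 are listed, with no role, in the submitters' processing notes. How estimates were made and scaled, on which annotation, and whether strand was used is not given in the sources used here. Whole reads could not be recovered (24.5% to 26.7% of values above 0 in a library lay within 0.1 of a whole step), so no count model was used. Values were divided by each library's median ratio to the geometric mean. A gene was tested if 4 or more libraries reached 10. The limma 3.58.1 model (R 4.3.3) used log2(value + 0.5), with trend and robust variance and 6 residual degrees of freedom. Adjusted p-values are Benjamini-Hochberg over all 12906 tested genes. The pseudocount understates changes of low genes. Within-family ratios were tested by exact two-sided permutation over the 70 arrangements. On simulated data for the comparison of CD24Neg with CD24Mid (12906 genes), 28 of 50 simulated 1.5-fold changes and 42 of 50 simulated 2-fold changes were called, as were 13 of 12588 unchanged genes. The simulation changed few genes, where 68.3% were called in the data, and gave all genes the same dispersion. Its rates therefore need not hold for the real comparison. Symbols came from GENCODE M21 (21223 of 23318 identifiers). Coordinates and exon lengths are on GRCm38, not the build of the files. No 2 libraries shared values. Alternatives were 3 other scalings (1 of them the values as deposited, in effect the main scaling), 2 pseudocounts, no filter and a plainer variance model. The others were a test against a fold change of 1.5, an exact permutation test with unadjusted p, and libraries left out. The members and gene lists were chosen with earlier results of these data known. Genes were named by rule: all 8 factors, the called members of each list (where more than 4 were called in a direction, the 3 with the largest change and a mean of at least 50 in the higher fraction), the 2 most alike genes per factor, also by deviations from group means, and Cd24a. Not every gene the rule allows is printed, and other genes were named after their values were seen. Some members of the list of regional factors are not reported here.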

Additional observations from a re-analysis of the deposited data

Results flagged for a closer look

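In CD24Neg library 4, Cdx1 had a value of 1917, above the 1516 to 1579 of the other CD24Neg libraries. In the same library Foxa2 had a value of 48.97, against 27.39 to 29.89 in the others. Each stood apart from the rest of its group by a large share of the group's range (0.843 and 0.884), beyond Dixon's 95% critical value for 4 libraries. Of 30 groups of 4 checked, chance flags about 1 in 20. Library 4 also had the highest enteroendocrine sum of its group (2684) and the highest Paneth marker sum (5304 against 1491 to 2288). Its stem cell (7426), goblet (506792) and plasma and B cell (758.3) sums were the highest of the group too. The enterocyte, T cell, myeloid and mast cell, mesenchymal and endothelial sums were not highest there. The part of these cells in the flagged values was not tested.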

How the results depend on the processing

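Gata5, Foxa1 and Foxa2 kept their direction and call in all 18 alternatives, and Cdx1 in 17 of 18, the exception being the test against a fold change of 1.5 (-0.624, adjusted p = 0.674). Under that test 4790 genes were called in place of 8810. Scaling to library totals (leaving out the 20 most abundant genes) left 30.4% of calls higher in place of 49.8%. It made Cdx2 (-0.485), Gata4 (-0.450) and Foxa3 (-0.880) pass and turned Gata6 to -0.181. Quantile normalization made Cdx2 (-0.565) and Gata4 (-0.491) pass and turned Gata6 to -0.126. Gata6 (0.247) also lost its call without trend or robust variance (adjusted p = 0.0669) and against a fold change of 1.5 (adjusted p = 1.0). The uncalled Gata4 change turned to 0.125 without CD24Neg libraries 2 and 8. Leaving out single libraries gave -0.136 to 0.029 for Cdx2 (0.000, 0.003 and 0.029 without CD24Mid library 1, CD24Mid library 3 and CD24Neg library 8), -0.121 to 0.109 for Gata4 (0.042 and 0.109 without CD24Mid library 1 and CD24Neg library 8), 0.183 to 0.305 for Gata6 and -0.666 to -0.213 for Foxa3. For the ratios it gave -0.656 to -0.477 for Cdx1 to Cdx2, 0.996 to 1.207 for Gata5 to Gata6, -1.444 to -1.341 for Gata4 to Gata5, -1.608 to -1.260 for Foxa2 to Foxa3 and -1.173 to -0.887 for Foxa1 to Foxa3. Without CD24Mid library 7 the adjusted p of these 5 was 0.0571. Without CD24Mid library 3 or 5 or CD24Neg library 2 or 6 it was 0.05, no longer under the threshold, for all but Cdx1 to Cdx2 (0.0667 to 0.08). Without CD24Neg libraries 2 and 8 the 5 ratios, -0.500, 1.098, -1.379, -1.185 and -1.070, could not pass (adjusted p = 0.0933), since 4 against 2 libraries are too few. Quantile normalization, added for the ratios after seeing the data, gave -0.485 for Cdx1 to Cdx2 (adjusted p = 0.0667) and 1.221, -1.586, -1.346 and -1.072 for the other 4 (adjusted p = 0.05). The adjusted p of 0.05 comes from the adjustment over 7 ratios. These 4 ratios stayed at the smallest exact permutation p (0.0286), but Cdx1 to Cdx2 did not. With 5 ratios at that smallest value, the adjusted p was 0.04. The cause of the other changes was not tested. No paired analysis was made, because the fractions share no replicate numbers and the labels do not say whether consecutively numbered libraries share animals. Summed T cell markers ran in the same order in libraries 1, 3, 5 and 7 (304.8, 120.9, 126.5 and 289.8) as in 2, 4, 6 and 8 (7467, 437.9, 1282 and 5784). So did the myeloid, stem cell and endothelial sums. The goblet, enteroendocrine, Paneth, enterocyte, plasma cell and mesenchymal sums did not. Whether these libraries are pairs was not tested, and every p-value treats them as unpaired. Low depth limits Foxa2 most, at 16.8 to 29.1 estimated reads in CD24Neg.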
